A study of Danio rerio with 3 samples.

Results

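Mitochondrial ribosomal protein genes were followed in whole zebrafish embryos after knockdown of slc2a10. They were chosen by name alone, as all probes of the array whose annotated gene symbol begins with mrpl (large subunit) or mrps (small subunit). This gave 93 of 43603 probes, which stand for 68 of 15548 named genes: 41 of the large subunit (56 probes) and 27 of the small subunit (37 probes). No filter on low signal was applied, so all 68 were tested. Their probes carry no level, only a ratio, so levels of different genes were not compared.

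The embryos were wild type of strain Ab, injected as fertilized eggs with a morpholino (MO), a synthetic antisense molecule that pairs with an RNA and keeps it from being spliced or translated. One set received 7.5 ng of an MO against the splice donor of exon 2 of slc2a10, which encodes GLUT10, a member of the facilitative glucose transporter family. Another set received 5 ng of a control MO. Both were kept at 28 degrees C to 48 hours post fertilization, and only the slc2a10 MO embryos were sorted for a recognizable phenotype called Class 1. Each of 3 biological replicates held 10 to 15 slc2a10 MO embryos and was hybridised with the same pooled control RNA on 1 of 3 arrays, with Cy3 on the knockdown sample of replicates 1 and 3 and Cy5 on that of replicate 2. MO amount, sorting and target differed together, and the pool counts as 1 control sample, so the spread given here is that of the knockdown replicates. The oligomers are shown because they define the contrast, and the capitals mark the complement of the splice donor motif GTAAGT in the slc2a10 MO.
slc2a10 MO: caaataaagtccACTTACttggt
control MO: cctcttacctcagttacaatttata

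The mitochondrial ribosome, or mitoribosome, translates the few proteins encoded by mitochondrial DNA, which are core subunits of the respiratory chain and of ATP synthase. Its rRNAs come from mitochondrial DNA, while its proteins are encoded in the nucleus, made in the cytosol and imported. The small subunit decodes the mRNA and the large subunit joins the amino acids. In humans, loss of single mitoribosomal proteins causes failure of several respiratory complexes at once, often with disease of heart, brain or liver.

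Every value below is a log ratio as deposited by the authors, given as the mean of 3 arrays with its SD. Reading it as log2 is an assumption, since no source used here names the base. The sign needs a convention. Over all probes, replicate 2, the dye swap, had a correlation of -0.65 to replicate 1 and of -0.69 to replicate 3, whereas that between replicates 1 and 3 was 0.48. Its sign was therefore turned. If the submitters had already oriented the ratios by sample, a dye effect larger than the sample effect would give the same signs of correlation. Sample titles name the knockdown ahead of the control pool for replicates 1 and 3, and behind it for replicate 2, without naming a ratio. Which sample was divided by which was not stated in any source used here. Positive values are therefore called the slc2a10 side, the side on which slc2a10 itself lay, with 0.50, 0.42 and 0.47 on replicates 1, 2 and 3 (0.46 ± 0.04, n = 3, limma adjusted p = 0.0008). Ratios of Cy5 over Cy3 would place the higher level of the slc2a10 side in the control pool, and ratios of Cy3 over Cy5 would place it in the knockdown embryos. A splice-blocking MO need not change the amount of transcript, so slc2a10 does not settle this. Ratios carry no level, so the markers of embryonic tissues could not be checked for presence.

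The first question was how many mitoribosomal genes differed between knockdown embryos and the control pool. Of the 68 genes, 31 were called on the slc2a10 side, with 0 on the opposite side, where a call is a Benjamini-Hochberg adjusted p under 0.05 by limma across all named genes. Among all named genes, such calls made up 11.1% towards the slc2a10 side and 8.16% away from it. At an unadjusted p under 0.05 the counts among the 68 were 43 and 0, against 2706 and 2174 of all 15548 named genes. The median of the 68 was 0.18, against 0.007 for all named genes. The differences were small. With ratios read as log2, no mitoribosomal gene reached 1.5-fold, a size that 1.91% of all genes reached together with the adjusted p. The largest was 1.36-fold. Had replicate 2 kept its deposited sign, limma would have called 0 of all genes (28 at an unadjusted p under 0.05, 0 of them mitoribosomal). In RNA of whole embryos, fewer cells of a type and less RNA per cell cannot be told apart.

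The 3 arrays, which shared the control pool, gave similar pictures once the sign of replicate 2 was turned. The median of the 68 genes was 0.19, 0.15 and 0.21 on replicates 1, 2 and 3, and 63, 57 and 60 of them lay above 0. For all named genes the medians were 0.01, 0.008 and 0.0007, and 53.8%, 52.2% and 50.2% lay above 0. Above 0 on all 3 arrays were 51 of the 68 (75.0%), against 27.2% of all genes, and below 0 on all 3 were 0, against 22.9%. Of the 68, 52 lay above the upper quartile of all genes.

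**Figure D1:**
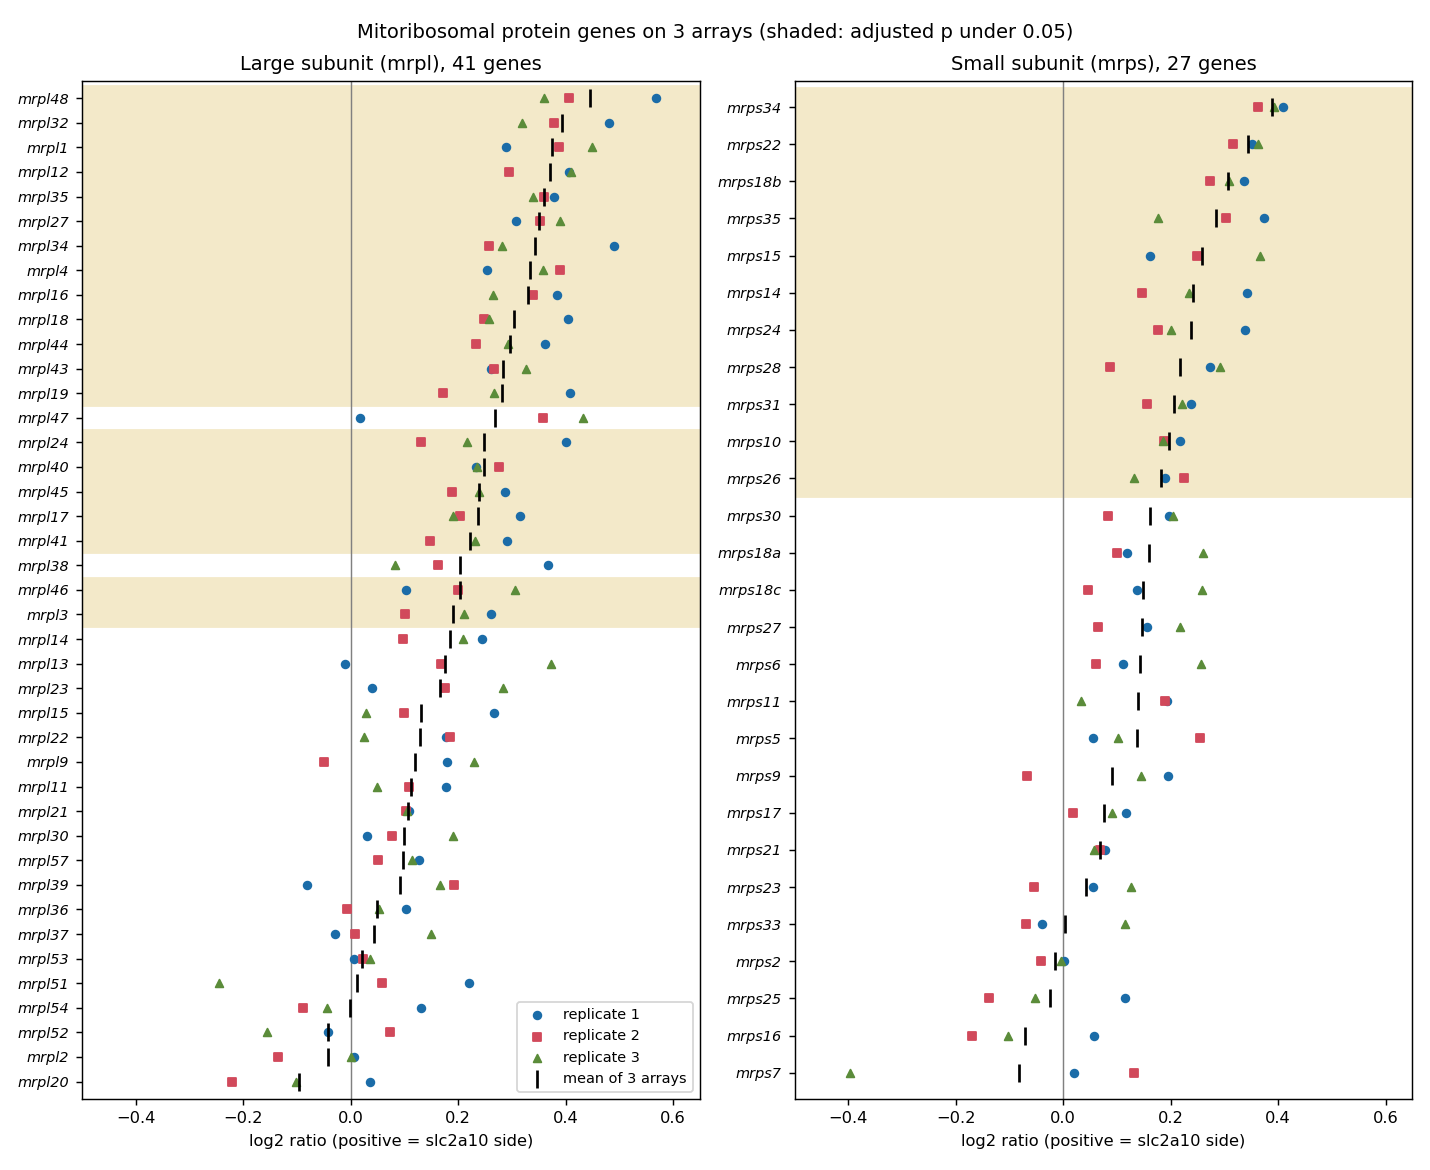
Log2 ratio of each mitoribosomal gene on replicates 1 to 3 (points) with the mean (bar), for the 41 large-subunit genes (left) and the 27 small-subunit genes (right), ordered by mean. Shading marks the 20 large-subunit and 11 small-subunit genes with an adjusted p under 0.05, and all of their 93 points lie to the right of 0.

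The large and the small subunit were then set side by side. In the large subunit 20 of 41 genes (48.8%) were called, with a median of 0.20 and quartiles of 0.10 and 0.30. In the small subunit 11 of 27 (40.7%) were called, with a median of 0.15 and quartiles of 0.07 and 0.23. The large-subunit median was higher on each array, 0.25 against 0.16 on replicate 1, 0.17 against 0.10 on replicate 2 and 0.23 against 0.19 on replicate 3. The gap between the medians was 0.084, 0.071 and 0.043 (0.066 ± 0.021, n = 3), which is smaller than the spread among the genes of either subunit. Taken over the 3-array means of the genes it was 0.055, and 0.030 without replicate 1. With replicate 2 in its deposited sign the order of the subunits turned, with medians of 0.07 and 0.09 and a gap of -0.018. The members are not replicates of a condition, and no test of this gap was made.

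Fewer small-subunit genes were called when any 1 array was left out. Without replicates 1, 2 and 3 in turn, 20, 14 and 17 large-subunit genes were called, and 5, 3 and 5 small-subunit genes. Among all genes, 10.6%, 6.31% and 9.7% were then called on the slc2a10 side. The small-subunit share stood at 18.5%, 11.1% and 18.5%, closer to these values than the large-subunit share of 48.8%, 34.1% and 41.5%. The small-subunit median did not fall with the calls, at 0.159, 0.187 and 0.14 in these fits against 0.148 with all arrays. That of the large subunit was 0.189, 0.225 and 0.183, against 0.203. With a term for the dye, 15 and 5 genes of the large and small subunit were called (36.6% and 18.5%), against 8.05% of all genes. Called in every one of the 3 fits that left out an array were 16 genes, 13 of the large and 3 of the small subunit. The share of all genes called in all 3 fits on the slc2a10 side was not counted. It cannot exceed the 6.31% called without replicate 2. Those 3 were mrps34, mrps22 and mrps18b, and the 13 were mrpl1, mrpl4, mrpl12, mrpl16, mrpl18, mrpl19, mrpl27, mrpl32, mrpl34, mrpl35, mrpl43, mrpl44 and mrpl48. The other called genes lost their call without at least 1 array.

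**Figure D2:**
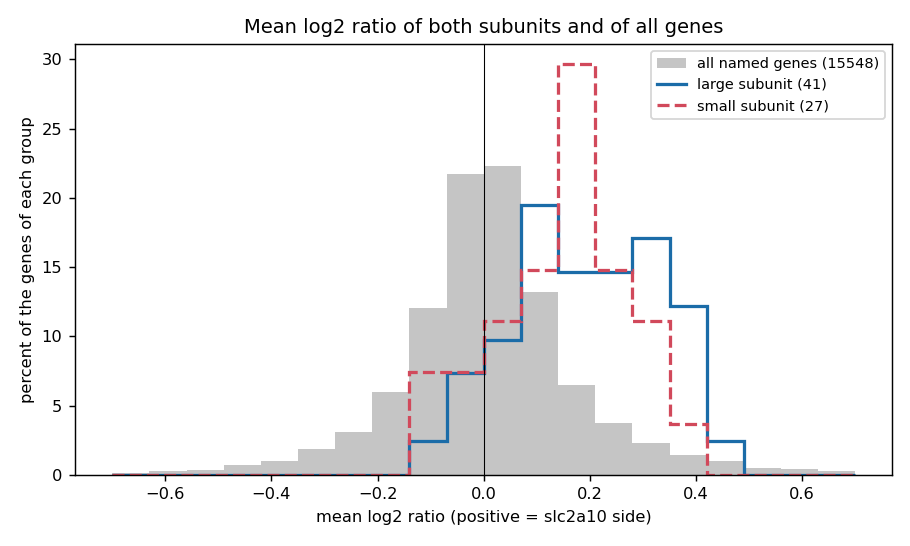
Share of genes (vertical axis, percent of each group) by mean log2 ratio (horizontal axis, bins of 0.07) for all 15548 named genes (grey), the large subunit (solid line) and the small subunit (dashed line). All genes centre near 0, while both subunits lie mostly to its right with medians of 0.20 and 0.15; 170 genes beyond 0.7 in size are not drawn.

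Of the large subunit, the gene with the largest difference was mrpl48, whose product sits in the central protuberance, the crown that faces the small subunit. Its ratios were 0.57, 0.41 and 0.36 on replicates 1, 2 and 3 (0.44 ± 0.11, adjusted p = 0.0018). Both of its probes lay on the same side, at 0.41 and 0.48. Next came mrpl32, a zinc-binding protein that in mice and yeast must be cleaved by the m-AAA protease before it joins the ribosome. It gave 0.48, 0.38 and 0.32 (0.39 ± 0.08, adjusted p = 0.0023), with all arrays well above 0.

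Genes of the stalk proteins mrpl1 and mrpl12 followed. Mrpl1, which forms the stalk where spent tRNA leaves, gave 0.29, 0.39 and 0.45 (0.38 ± 0.08, adjusted p = 0.0028). Mrpl12, the stalk protein that recruits the translational GTPases and that in human cells also binds the mitochondrial RNA polymerase, gave 0.41, 0.29 and 0.41 (0.37 ± 0.07, adjusted p = 0.0026). Its 3 probes ranged from 0.34 to 0.40. Mrpl11, at the base of that stalk, had lower values of 0.18, 0.11 and 0.05 and did not pass (0.11 ± 0.06, adjusted p = 0.20, 95% interval -0.01 to 0.24).

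Grouping the genes by place in the ribosome was done after their values had been seen, so its counts are a description. They are to be read beside the 11.1% of all genes called on the slc2a10 side. Only part of the members were given a place, so the groups may be incomplete. Without a place were mrpl52 (-0.04, 0.07 and -0.16) and mrpl9 (0.18, -0.05 and 0.23), neither called, and also called genes such as mrpl32 and mrpl35. Of the 6 mrpl genes assigned here to the central protuberance, 5 were called and all 6 lay above 0 on every array. Without replicate 2 the number was 3, as mrpl40 and mrpl46 lost their calls. Besides mrpl48 they were mrpl27, whose bacterial relative reaches the peptidyl transferase centre (0.31, 0.35 and 0.39), mrpl18, the relative of the 5S rRNA-binding protein (0.40, 0.25 and 0.26), mrpl40 and mrpl46. The low SD of mrpl27 (0.35 ± 0.04, adjusted p = 0.0028) set it apart from mrpl46, which ranged from 0.10 to 0.31 (adjusted p = 0.044). The sixth, mrpl38, ranged from 0.08 on replicate 3 to 0.37 on replicate 1 and did not pass (adjusted p = 0.067).

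Around the tunnel through which the new protein leaves, 4 of 7 genes were called and all 7 lay above 0 on every array. Without replicates 1, 2 and 3 in turn the numbers were 5, 2 and 3, and of the 4 only mrpl4 was called each time. Mrpl4, which lines the tunnel wall, gave 0.25, 0.39 and 0.36 (0.33 ± 0.07, adjusted p = 0.0043). Mrpl24 and mrpl17, at the rim, had means of 0.25 and 0.24, and mrpl45, which in mammals ties the ribosome to the inner membrane, had 0.24 ± 0.05. The tunnel genes mrpl22 and mrpl23 had 0.13 ± 0.09 and 0.17 ± 0.12 and did not pass. Mrpl47 was close to the threshold (adjusted p = 0.054), with 0.02 on replicate 1 and 0.36 and 0.43 on the others.

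The remaining large-subunit genes among the 8 largest were mrpl35 and mrpl34, relatives of small bacterial ribosomal proteins. Mrpl35 gave 0.38, 0.36 and 0.34, and its SD of 0.02 was among the lowest of the called genes (adjusted p = 0.0023). Mrpl34 gave 0.49, 0.26 and 0.28 (adjusted p = 0.0068), with replicate 1 highest and both probe means at 0.34. The other called genes of this subunit, mrpl16, mrpl44, mrpl43, mrpl19, mrpl41 and mrpl3, had means between 0.19 and 0.33. Mrpl44 is a relative of an RNase, and human variants of MRPL44 and MRPL3 cause cardiomyopathy.

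At the other end of the large subunit, 4 genes had means below 0. Mrpl20, the relative of a bacterial protein needed early in assembly, gave 0.04, -0.22 and -0.10 (-0.10 ± 0.13, adjusted p = 0.35, 95% interval -0.24 to 0.05). Weighting the arrays by their estimated precision, which gave replicate 2 a weight of 2.81 against 0.508 and 0.701, called it on the opposite side (-0.17, adjusted p = 0.029). With these weights 2489 of all 15548 genes were called on the opposite side, and 17.5% on the slc2a10 side. Mrpl2, the relative of a protein close to the peptidyl transferase centre, had -0.04 ± 0.08, and mrpl52 had -0.04 ± 0.11. Mrpl54 was nearest to 0 (-0.0007), with its arrays at 0.13, -0.09 and -0.04. None of the 4 had the same sign on all arrays.

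In the small subunit the largest differences were those of mrps34 and mrps22, whose proteins bacteria lack. Mrps34, in which human variants cause Leigh syndrome, gave 0.41, 0.36 and 0.39 (0.39 ± 0.02, adjusted p = 0.0016). Mrps22, in which human variants cause cardiomyopathy and oedema, gave 0.35, 0.32 and 0.36 (0.34 ± 0.02, adjusted p = 0.0028). Both had all 3 arrays within a narrow band. Mrps35, behind mrps18b in size, gave 0.37, 0.30 and 0.18 (0.28 ± 0.10, adjusted p = 0.011), and without replicate 2 it did not pass (0.28, adjusted p = 0.074).

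The mrps18 paralogs are relatives of a single bacterial protein, and each occupies its own place in the mammalian ribosome. Mrps18b gave 0.34, 0.27 and 0.31 and was called (0.31 ± 0.03, adjusted p = 0.0048). Mrps18a gave 0.12, 0.10 and 0.26 (0.16 ± 0.09, adjusted p = 0.088), and mrps18c gave 0.14, 0.05 and 0.26 (0.15 ± 0.11, adjusted p = 0.13). As gene averages all 3 paralogs lay above 0 on every array, and their differences from each other were not tested. Of the 2 probes of mrps18c, 1 gave -0.07, -0.01 and 0.26, and the other gave 0.35, 0.10 and 0.25. In mammals, mrps18a and mrps30 belong to the large subunit in spite of their names. Mrps30 gave 0.20, 0.08 and 0.20 and did not pass (0.16 ± 0.07, adjusted p = 0.076). Counting both with the large subunit gave 20 of 43 (46.5%) and 11 of 25 (44.0%).

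In the head of the small subunit, which swivels as the mRNA moves on, 3 of 5 genes with bacterial relatives were called, and 0, 0 and 1 without replicates 1, 2 and 3 in turn. Mrps14 had 0.34, 0.15 and 0.23 (0.24 ± 0.10, adjusted p = 0.022) and mrps24 had 0.34, 0.18 and 0.20 (0.24 ± 0.09, adjusted p = 0.021), while mrps10 had 0.20 ± 0.02. Mrps14 lost its call without any 1 of the 3 arrays (adjusted p from 0.053 to 0.054), and mrps24 lost it without replicate 1 or 2 (adjusted p = 0.052 and 0.073). Mrps7, whose bacterial relative nucleates the head, stood apart with 0.02, 0.13 and -0.40. Its SD of 0.28 was the largest among the 68 genes, and its 95% interval ran from -0.30 to 0.14.

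Of the 8 genes assigned here to the body and platform by their bacterial relatives, 1 was called (12.5%), near the 11.1% of all genes. Without replicates 1, 2 and 3 in turn the numbers were 1, 0 and 0. The called gene was mrps15, the relative of a primary rRNA-binding protein, at 0.16, 0.25 and 0.37 (0.26 ± 0.10, adjusted p = 0.017). It lost its call without replicate 2 or 3 (adjusted p = 0.089 and 0.077). The platform and body genes mrps5, mrps6 and mrps11 had means of 0.14 each and did not pass. Mrps16, a body protein whose loss in humans is lethal in infancy, had 0.06, -0.17 and -0.10 (-0.07 ± 0.12). The 8 held mrps18c but not its paralog mrps18b, which was called. Mrps28, also called, and mrps2 and mrps18a, not called, were likewise assigned to neither head nor body and platform. The shares of these groups depend on that choice.

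The remaining called small-subunit genes were mrps28, mrps31 and mrps26. Mrps28 gave 0.27, 0.09 and 0.29 (0.22 ± 0.11, adjusted p = 0.038) and lost its call without any 1 array (adjusted p from 0.054 to 0.14). Mrps31 and mrps26 had 0.21 ± 0.04 and 0.18 ± 0.05, and each lost its call without at least 1 array (highest adjusted p = 0.121 and 0.315). Nearest to 0 were mrps33 (0.003 ± 0.10), mrps2 (-0.01 ± 0.02), mrps25 (-0.02 ± 0.13) and mrps23 (0.04 ± 0.09). The arrays of mrps2 lay between -0.04 and 0.002, and its 95% interval ran from -0.13 to 0.10.

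Of the 37 genes that did not pass, 29 had means above 0 and 8 below, and 5 had an adjusted p between 0.05 and 0.10. Grouped by origin, 19 of 43 genes with a bacterial relative (44.2%) and 12 of 25 specific to mitochondria (48.0%) were called, with medians of 0.18 in each. In that grouping mrps28, mrps18a and mrps18b were moved to the bacterial relatives after their values had been seen. As first listed the counts were 17 of 40 and 14 of 28.

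Probes of the same gene gave a check that the averages do not show. Of the 68 genes, 46 had 1 probe, 19 had 2 and 3 had 3. Among the 22 with several, the probe means lay within 0.1 of each other for 18, with a median gap of 0.06. Signs differed for mrpl39, mrpl51, mrpl53 and mrps33, none of them called as an average. Mrpl39 had probes at -0.06 and 0.25, the latter called by limma on single probes (adjusted p = 0.046). Mrpl51 had probes between -0.16 and 0.22, and its average moved from 0.22 on replicate 1 to -0.24 on replicate 3. The called gene mrps26 had probes at 0.10 and 0.26 (adjusted p = 0.42 and 0.030 by limma on single probes). Neither probe of mrps31 or of mrpl41, both called as averages, was called singly. The only probes of mrpl3, mrpl46 and mrps28, called in the gene fit, also did not pass singly (limma adjusted p = 0.079, 0.072 and 0.062). Fitted probe by probe, 25 large-subunit and 11 small-subunit probes were called on the slc2a10 side (6.18% of all probes) and none on the opposite side (5.49% of all probes), where 1 probe, of mrpl51, had an unadjusted p under 0.05.

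**Figure D3:**
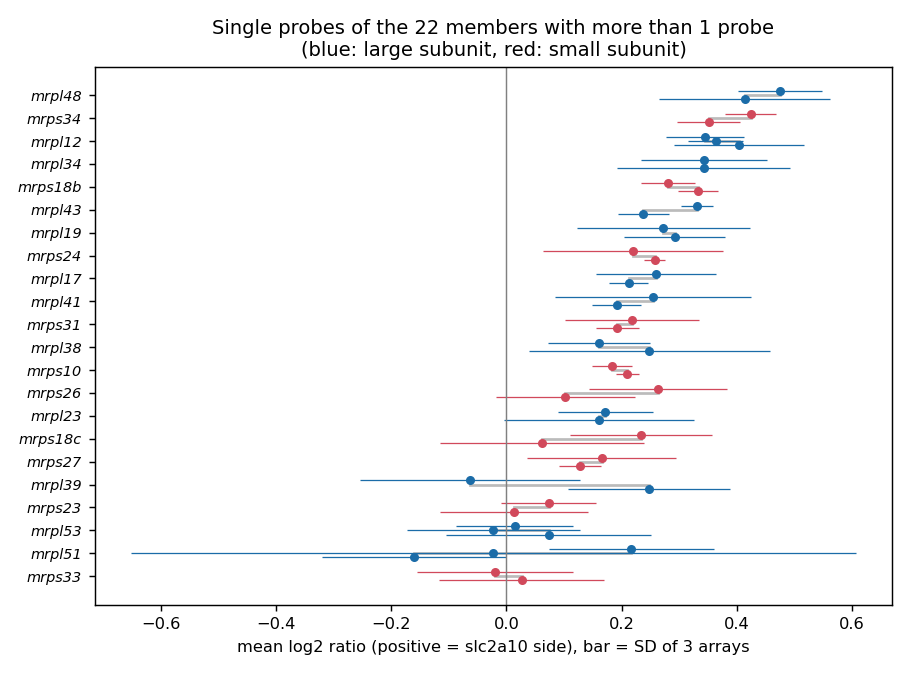
Mean log2 ratio of each probe (horizontal axis, point) with the SD of 3 arrays (bar) for the 22 mitoribosomal genes with more than 1 probe, ordered by gene mean. Grey lines join the probes of a gene; the widest gaps are those of mrpl51 (0.38) and mrpl39 (0.31).

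Other genes needed for mitochondrial translation were taken from lists of textbook members. Of 5 measured mitoribosomal proteins that carry other names, 3 were called on the slc2a10 side and all 5 lay above 0 on every array. They were ptcd3, which sits at the mRNA entry (0.26, 0.35 and 0.40), chchd1 (0.24, 0.27 and 0.35) and dap3, a GTP-binding protein of the head (0.17, 0.19 and 0.28). Gadd45gip1 (0.16 ± 0.07, adjusted p = 0.073) and aurkaip1 (0.07 ± 0.02) did not pass.

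The factors that work on the ribosome had lower medians, and the shares called in these lists are to be read against the 11.1% of all genes. Of 15 translation factors 1 was called (6.67%), the elongation factor gene tufm at 0.28, 0.17 and 0.22 (0.22 ± 0.06, adjusted p = 0.022), which was not called without replicate 2 or without replicate 3. The list median was 0.09. The recycling factor gene mrrf had 0.17 ± 0.06 (adjusted p = 0.065), and tsfm, the exchange factor of tufm, ranged from 0.27 to -0.70. Of 21 assembly and rRNA modification genes 3 were called (14.3%), the GTPase gene mtg1 (0.21 ± 0.04), mterf3 (0.23 ± 0.08) and the acyl carrier gene ndufab1b (0.23 ± 0.03), with a list median of 0.09. Without replicate 2 none of this list was called, and without replicate 3 only 1.

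Of 9 genes of mitochondrial transcription and RNA stability 1 was called (11.1%, as among all genes). This was tfb2m, the initiation factor of mitochondrial transcription, at 0.48, 0.42 and 0.48 (0.46 ± 0.03, adjusted p = 0.0008), above every mitoribosomal gene in size. The packaging factor gene tfam had 0.03 ± 0.05. Of 17 mitochondrial aminoacyl-tRNA synthetase and amidotransferase genes 1 was called (5.88%), wars2 (0.24 ± 0.02, adjusted p = 0.013), with a median of 0.05. Without replicate 2 it was 0, and without replicate 3 it was 2. Of 12 protease and insertion genes, 1 on each side was called (8.33%, against 11.1% and 8.16% of all genes): the prohibitin gene phb2b (0.28 ± 0.17) on the slc2a10 side and the protease gene yme1l1b (-0.23 ± 0.04) on the opposite side, and each side had 0 without replicate 2.

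**Figure D4:**
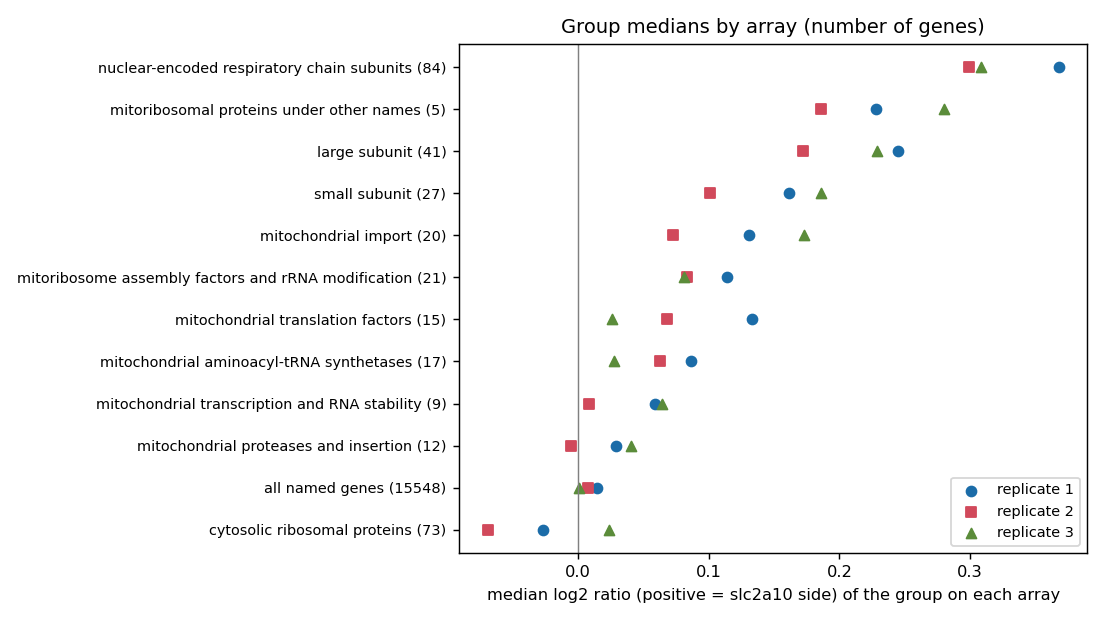
Median log2 ratio on each array (points, 1 per replicate) for the mitoribosomal subunits, the other lists of mitochondrial gene expression, respiratory chain subunits, cytosolic ribosomal proteins and all named genes, with the number of genes in brackets. The respiratory chain list includes ATP synthase genes. The respiratory chain lies farthest to the right (0.37, 0.30 and 0.31), the large and small subunit between it and the translation factors, and the cytosolic ribosomal proteins on both sides of 0.

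Related groups are to be read beside the 11.1% and 8.16% of all named genes called on the slc2a10 and the opposite side. Nuclear-encoded genes of the respiratory chain and ATP synthase had 60 of 84 called on the slc2a10 side (71.4%), 0 called opposite to it, and a median of 0.32. That list was drawn by symbol prefix and includes the ATP synthase inhibitor genes atp5if1a and atp5if1b. Mitochondrial import genes had 5 of 20 called, timm17a, timm10b, timm13, timm29 and timm50, with a median of 0.12. Without replicate 2 the number was 2. The cytosolic ribosomal proteins, which serve the other ribosome of the cell, had a median of -0.02. Of their 73 genes, 3 were called towards slc2a10 (4.11%) and 2 away from it (2.74%). Both shares lay below those of all genes. The 3 were rpl30 (0.38 ± 0.07), rpl34 (0.36 ± 0.11) and rps29 (0.30 ± 0.08), and the 2 were rpl12 (-0.24 ± 0.06) and rplp0 (-0.24 ± 0.03). Without replicate 2 neither of the last pair was called. These groups are described by counts, shares and medians only, and no difference between them and the mitoribosomal genes was tested.

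Markers of other cell types were counted in the same fit, in which 11.1% and 8.16% of all genes were called on the slc2a10 and the opposite side. The skeletal muscle list held 20 measured genes, of which 12 passed the test towards the slc2a10 side and 2 away from it (median 0.32). The counts were 3 and 0 of 9 for heart (median 0.14), 5 and 1 of 10 for liver (median 0.15) and 6 and 0 of 8 for retina (median 1.00). Markers of cycling cells lay on the opposite side, with 19 of 22 called there, 0 on the slc2a10 side, and a median of -0.49. The part of these markers in the mitoribosomal result was not tested.

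**Figure D5:**
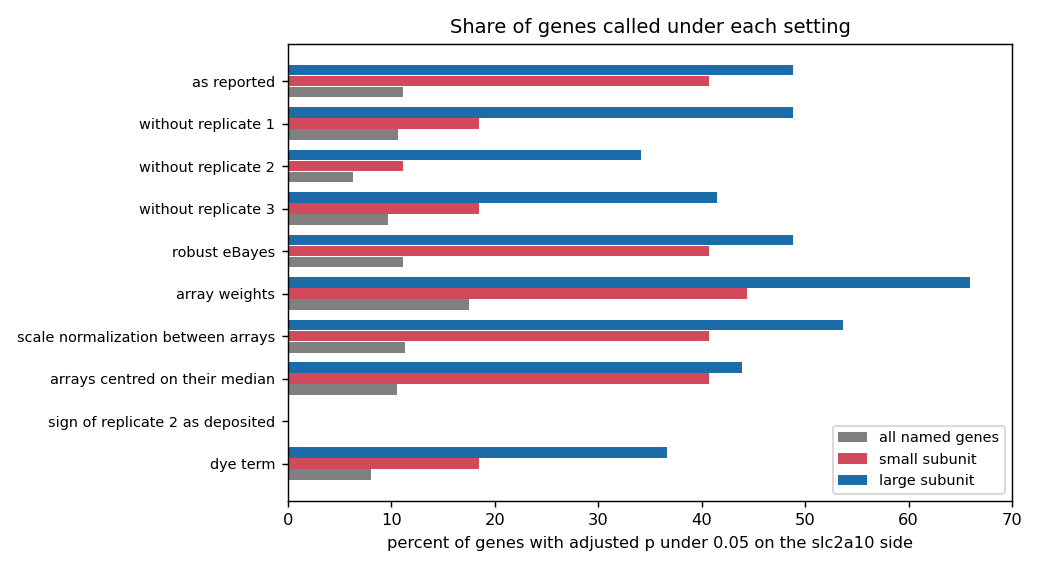
Share of genes with an adjusted p under 0.05 on the slc2a10 side (horizontal axis, percent) in the large subunit, the small subunit and all named genes, for the reported fit and 9 alternatives. Both subunits lie above all genes in each fit except the one with the sign of replicate 2 as deposited, where no gene was called, and the small subunit drops from 40.7% to 11.1% without replicate 2.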

How the data were processed

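Transcripts of whole embryos were measured on 3 arrays with both dyes, each pairing an slc2a10 MO replicate with the control MO pool. The authors deposited 1 log ratio per probe and array, read here as log2 because sizes reached 4.85. The submitters' processing notes name Partek without version or role. How background was corrected and arrays were normalized is not given in the sources used. Scanner columns were not analysed here. The deposited medians were -0.0016, -0.0076 and -0.0045, so the arrays had been centred.

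After 45 control spots were left out, the sign of replicate 2 was turned, and probes were named from GEO's platform annotation, updated with RefSeq's gene table for 23576 of the 23717 named probes. The updates changed no mitoribosomal symbol. Where a gene had several probes, their ratios were averaged on each array. Means were tested against 0 with limma 3.58.1 in R 4.3.3 (lmFit, eBayes), adjusted over all 15548 genes by Benjamini-Hochberg at 0.05. The calls rest on spread that limma pools across genes, since each gene has 2 residual degrees of freedom. The code of the fit was run on simulated data with independent normal noise, and no result here rests on that run.

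The members and lists were chosen with earlier results of these data known, and the grouping by place in the ribosome after their values were seen. Named by rule were, per subunit, the 8 largest called genes on each side, the 4 nearest to 0, all with means below 0, those with probes of unlike sign, the mrps18 paralogs and mrps30. Other members were named outside this rule after their values were seen, by place in the ribosome or as remaining called genes. Alternatives left out arrays, changed the moderation, weights, scaling, dye term, sign, threshold, averaging and subunit assignment.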

Additional observations from a re-analysis of the deposited data

How the results depend on the processing

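Direction held for every called mitoribosomal gene in the reported fit and in the 9 alternative fits of the gene averages. All 31 lay above 0 on all 3 arrays, so most of these fits could not have turned a direction. Robust moderation, scaling and centring moved the counts by less than 1.5 times. Leaving out 1 array gave 14 to 20 large-subunit and 3 to 5 small-subunit genes, against 20 and 11, and 1556 to 3211 of all genes, against 2996. The lowest counts came without replicate 2. The gap between the subunit medians was 0.0304 to 0.0427 with an array left out, against 0.0554. A dye term gave 5 small-subunit genes. Array weights gave 5211 of all genes and 1 large-subunit gene, mrpl20, on the opposite side. With the sign of replicate 2 as deposited limma called 0 genes (28 of all genes and 0 mitoribosomal genes at an unadjusted p under 0.05), so also 0 of either subunit. The medians were then 0.0741 and 0.0924, and the gap -0.0182. An adjusted p under 0.01 gave 1536 of all genes, 12 of the large and 3 of the small subunit. Requiring 1.5-fold gave 297, 0 and 0. Fitting probes singly gave 5090 called probes of 43603. Other background corrections, a filter on dim probes and the slide as a block were not run, since no scanner column was analysed. No paired analysis was possible because the single group has 1 pool as its control. With 3 arrays and 1 pool, the spread between control embryos is outside every p here. Signal above background was not analysed here.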
